A study of Mus musculus with 54 samples.

Results

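Naive mouse CD4+ T cells were followed through activation for 8 genes that restrain PI3K signaling, mTOR or glucose uptake: Pik3ip1, Tsc1, Ddit4, Sesn1, Sesn3, Txnip, Arrdc3 and Tsc22d3. They were chosen from a list by name, out of 55385 genes with a row in the count tables, and all 8 had reads in both experiments and entered the tests. In WT cells, Tsc22d3, Txnip and Pik3ip1 fell 15.3-fold to 95.7-fold within 20 h of stimulation, Sesn1 fell 2.77-fold to 3.47-fold, Ddit4 was lowest at 4 h, and Tsc1, Sesn3 and Arrdc3 moved by about 2-fold or less. Without LAT, an adaptor that links the TCR to its downstream pathways, Pik3ip1, Txnip and Tsc22d3 stayed within 2-fold of their starting level and Sesn1 rose by 20 h, whereas Ddit4 fell in both genotypes.

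PI3K makes a membrane lipid that recruits the kinase AKT, and AKT in turn opens the way to mTOR complex 1, the kinase complex that drives protein synthesis and growth when nutrients are at hand. Naive T cells are small and quiescent and keep this pathway low, and engagement of the TCR and CD28 turns it on. Pik3ip1 is a transmembrane protein that binds and inhibits PI3K. Tsc1 forms with Tsc2 the complex that keeps the mTOR activator Rheb inactive, Ddit4 (REDD1) is a stress-induced inhibitor acting through that complex, and the sestrins Sesn1 and Sesn3 hold mTOR complex 1 back when amino acids are scarce. Txnip and Arrdc3 are alpha-arrestins: Txnip binds thioredoxin and takes glucose transporters off the surface, and Arrdc3 acts on membrane receptors. Tsc22d3 (GILZ) is a glucocorticoid-induced protein and, like several of the others, a target of FOXO transcription factors, which AKT keeps out of the nucleus.

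In the CD5/CD6 experiment, naive CD4+ T cells were enriched with magnetic beads from lymph nodes and spleens of young adult C57BL/6 mice that were wild-type (WT), Cd5-/-, Cd6-/- or Cd5-/-Cd6-/-. In the LAT experiment, the naive CD4+ cells, WT (hDTR+) or Lat-/- (hDTR-), were flow-sorted out of mice of the Lat fl-dtr maT-Cre line, in which Cre is active in mature T cells, so that both groups come from mice that carry the floxed allele and the transgene. Cells were left unstimulated (0 h) or stimulated with plate-bound anti-CD3 at 3 µg/ml and anti-CD28 at 1 µg/ml for 4 h or 20 h. There were 3 libraries per genotype and time, 36 in the CD5/CD6 experiment and 18 in the LAT experiment. Organs were pooled. The study calls the samples of a condition independent, but the labels do not say whether the 3 libraries came from different mice, so the p-values measure the spread between these libraries, which may be technical. As there were no unstimulated cells at 4 h or 20 h, stimulation and time in culture cannot be told apart.

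Libraries held 20554354 to 45222554 counts in the CD5/CD6 experiment and 17784644 to 28501095 in the LAT experiment, so even the lowest level of any of the 8 genes rested on at least 93 counts in a library. Lat stood at 5.69 to 19.1 CPM (counts scaled to library size) in the Lat-/- libraries and at 92.2 to 351 CPM in their WT controls. Cd5 and Cd6 stood below 1 CPM in the Cd5-/-Cd6-/- libraries at 0 h. At 0 h, library 2 labelled Cd5-/- had 719.5 CPM of Cd5 and 329 CPM of Cd6, against 105 and 129 CPM of Cd5 in the other libraries labelled Cd5-/-, and library 2 labelled Cd6-/- had 172 CPM of Cd5 and 1203 CPM of Cd6, so each carries the pattern of the other label. Results that use these libraries are therefore given for libraries as labelled, and leaving both out changed no call for the 8 genes. T cell markers (Cd3e, Cd3d, Cd3g, Trac, Cd4 and Lck) were detected in all WT, Cd5-/-Cd6-/- and Lat-/- conditions. In the bead-enriched WT cells, the summed B cell markers stood at 94.4 to 546 CPM at 0 h and 1.81 to 3.46 CPM at 20 h, myeloid markers at 122 to 279.7 CPM and 2.21 to 3.54 CPM, and erythroid markers at 933 to 2170 CPM and 8.07 to 40.3 CPM. The part of such a change in makeup in the fall of the 8 genes was not tested in that experiment; in the sorted WT cells at 0 h the same lists summed to 3.10 to 4.90, 4.69 to 7.45 and 0.157 to 1.16 CPM.

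The 8 genes are protein-coding and lie apart from one another in the mouse genome (GRCm38): Pik3ip1 at chr11:3330401-3342971 (+), Tsc1 at chr2:28641228-28691167 (+), Ddit4 at chr10:59949669-59951834 (-), Sesn1 at chr10:41809935-41908424 (+), Sesn3 at chr9:14275067-14333101 (+), Txnip at chr3:96557957-96561883 (+), Arrdc3 at chr13:80883384-80896042 (+) and Tsc22d3 at chrX:140539528-140600659 (-). The opposite-strand gene Gm15441 shares 606 exon bases with Txnip and had 0 to 33 counts per library, and Gm12592 shares 91 exon bases with Pik3ip1 and had 0 to 61 counts; whether the counting used strand is not given in the sources used here.

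RefSeq (GRCm38.p6) gave 13 promoters for the 8 genes, each of 300 bases, with 250 before and 50 after the start. They were searched on both strands for GTAAACA, the core bound by FOXO factors, CACGTG, the E-box, TGACGTCA, the core of the CRE, a loose form of the carbohydrate response element, and a tandem of CACGAG words, chosen because it is known from Txnip itself. Here 3 of the 13 promoters are shown, those of the 2 genes that hold a match and that of Pik3ip1, which fell with Txnip and holds none; capitals mark the matches.
Txnip promoter, chr3:96557707-96558006 (+): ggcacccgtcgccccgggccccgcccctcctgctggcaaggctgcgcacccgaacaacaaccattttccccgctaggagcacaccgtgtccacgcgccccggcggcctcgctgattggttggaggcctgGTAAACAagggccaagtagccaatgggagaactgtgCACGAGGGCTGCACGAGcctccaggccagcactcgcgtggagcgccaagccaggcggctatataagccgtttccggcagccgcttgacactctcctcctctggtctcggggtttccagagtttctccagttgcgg
Sesn1 promoter, chr10:41810324-41810623 (+): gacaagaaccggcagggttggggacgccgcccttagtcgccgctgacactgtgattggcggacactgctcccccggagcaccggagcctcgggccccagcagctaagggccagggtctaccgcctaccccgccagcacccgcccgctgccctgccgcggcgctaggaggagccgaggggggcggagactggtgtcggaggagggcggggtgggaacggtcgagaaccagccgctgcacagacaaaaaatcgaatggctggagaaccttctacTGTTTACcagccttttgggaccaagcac
Pik3ip1 promoter, chr11:3330481-3330780 (+): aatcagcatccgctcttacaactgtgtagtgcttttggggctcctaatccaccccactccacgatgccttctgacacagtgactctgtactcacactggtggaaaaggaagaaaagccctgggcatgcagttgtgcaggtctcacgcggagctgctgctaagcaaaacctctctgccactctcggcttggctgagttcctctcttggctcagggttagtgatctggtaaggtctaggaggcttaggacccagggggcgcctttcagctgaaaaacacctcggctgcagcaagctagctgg

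GTAAACA occurred in 2 of the 13 promoters, at bases 130 to 136 of the Txnip window and, on the reverse strand, at bases 273 to 279 of the Sesn1 window, and in 3.65% of all 32851 promoters of the same length. The tandem lies at bases 166 to 182 of the Txnip window, and Txnip was the only 1 of the 32851 promoters (0.00304%) to hold it. CACGTG was in 0 of the 13 promoters and in 7.15% of all, TGACGTCA in 0 of 13 and 1.79% of all, and the loose carbohydrate response element in 0 of 13 and 0.557% of all. These matches describe letters in the window and are no evidence of binding. The Txnip and Sesn1 windows were GC-rich, at 65.3% and 66.7%, and Pik3ip1 stood at 54.7%, against a median of 52.7% over all promoters.

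Levels of different genes were compared per kilobase of exon, in CPM per kb. In resting WT cells from the CD5/CD6 experiment, Txnip was highest at 533 ± 136 CPM per kb (SD, n = 3), followed by Ddit4 at 189 ± 146 and Tsc22d3 at 161 ± 57.9, which overlapped. Pik3ip1 followed at 41.1 ± 2.81, Sesn1 at 28.8 ± 4.03 and Sesn3 at 24.1 ± 0.318, each apart from its neighbours, and Arrdc3 at 5.12 ± 1.01 and Tsc1 at 4.77 ± 0.821 overlapped at the bottom. The order turned over with activation. At 20 h, Ddit4 led at 29.0 ± 2.96 CPM per kb, Txnip at 14.2 ± 0.891 overlapped Sesn3 at 12.6 ± 2.48, and Tsc22d3 and Pik3ip1 had dropped to the last places at 1.68 ± 0.131 and 1.24 ± 0.154. In Lat-/- cells at 20 h, Txnip still led at 461 ± 72.5 CPM per kb, Tsc22d3 at 90.7 ± 11.2 overlapped Pik3ip1 at 79.1 ± 4.66, which overlapped Sesn1 at 76.0 ± 6.75, and Tsc1 was last at 5.18 ± 1.08.

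**Figure D1:**
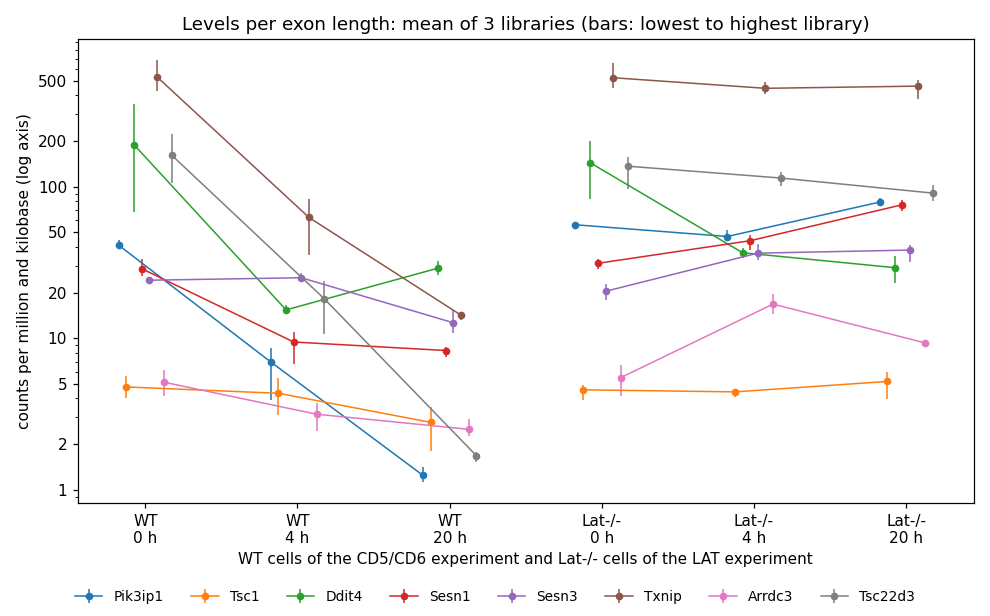
Level of each gene in CPM per kb of exon (log axis) in WT (CD5/CD6 experiment) and in Lat-/- cells of the LAT experiment, by time; points are means of 3 libraries and bars run from the lowest to the highest library. Txnip drops from 533 to 14.2 CPM per kb in WT cells and stands at 461 CPM per kb in Lat-/- cells at 20 h.

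The response of WT cells was tested first, in the CD5/CD6 experiment. A gene was called when it changed more than 2-fold with an adjusted p below 0.05 in edgeR's quasi-likelihood test, with p adjusted over all genes. Of the 8 genes, 5 were called lower at 4 h, where 11.1% of the 32290 genes tested were, and 6 were called lower at 20 h, where 17.3% were; none was called higher. Among the 10792 genes that averaged 50 counts or more, as all 8 do, 20.7% and 24.4% were called lower. The median log2 fold change of the 8 genes was -2.09 at 4 h and -2.25 at 20 h, beside 0 over all genes. From 4 h to 20 h, 3 of the 8 were called lower, against 12.2% of all genes. All of these values are shares of a library's RNA, and in bulk samples fewer cells of a type and less RNA per cell cannot be told apart. When libraries were scaled by their totals alone, lower calls made up 69.4% of the called genes at 4 h in place of 57.4%, and all 5 calls of the 8 genes stood.

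Pik3ip1, the PI3K inhibitor, fell in steps. It stood at 171, 166 and 189 CPM in the 3 WT libraries at 0 h, at 16.8, 36.5 and 35.9 CPM at 4 h and at 4.79, 5.09 and 6.05 CPM at 20 h. The 3 times did not overlap. The fall was 5.90-fold at 4 h (log2 fold change -2.56 ± 0.20 (SE), adjusted p = 1.2e-18) and 33.1-fold at 20 h (-5.05 ± 0.23, adjusted p = 7.6e-32), and the step from 4 h to 20 h alone was 5.61-fold.

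Tsc1, a subunit of the complex that restrains Rheb, stayed within 2-fold. It stood at 55.1, 66.7 and 47.4 CPM at 0 h, 52.5, 64.2 and 37.0 CPM at 4 h and 41.7, 35.7 and 21.3 CPM at 20 h. The 4 h libraries overlapped both other times. The log2 fold change was -0.14 ± 0.26 at 4 h (adjusted p = 0.85) and -0.77 ± 0.26 at 20 h (adjusted p = 0.012), short of the fold threshold. Ddit4, the stress-induced inhibitor of mTOR complex 1, was spread widely in resting cells, at 261, 119 and 617 CPM. It stood at 29.3, 26.3 and 25.4 CPM at 4 h and 50.5, 46.0 and 56.3 CPM at 20 h, so that all stimulated libraries lay below all resting ones and 20 h lay above 4 h. The fall was 12.3-fold at 4 h (log2 fold change -3.62 ± 0.34, adjusted p = 2.2e-15) and 6.53-fold at 20 h (-2.71 ± 0.32, adjusted p = 2.2e-11). The size of that fall turned on library 3: without replicate 3 it was -2.77 at 4 h and -1.98 at 20 h. From 4 h to 20 h the log2 fold change was 0.92 ± 0.31 (adjusted p = 0.015), below the fold threshold; with library totals alone it was 1.02 and was called.

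The 2 sestrins parted. Sesn1 stood at 102, 109 and 133 CPM at 0 h, 26.8, 42.0 and 44.0 CPM at 4 h and 34.8, 29.9 and 34.4 CPM at 20 h. It fell 3.05-fold at 4 h (log2 fold change -1.61 ± 0.18, adjusted p = 5.9e-12) and 3.47-fold at 20 h (-1.80 ± 0.18, adjusted p = 6.8e-14), and 4 h and 20 h overlapped. Sesn3 stood at 364, 367 and 374 CPM at 0 h, 381, 408 and 358 CPM at 4 h and 236, 177 and 166 CPM at 20 h. Its 3 libraries at 20 h lay below all earlier ones, with a log2 fold change of 0.05 ± 0.17 at 4 h (adjusted p = 0.99) and -0.93 ± 0.17 at 20 h (adjusted p = 3.2e-06). The second value missed the 2-fold threshold and passed it without replicate 1 (-1.11) or with library totals alone (-1.08). From 4 h to 20 h, Sesn3 changed by -0.99 ± 0.17 and was called in the fit with the replicate number as a block (-1.003) and by DESeq2 (-1.03).

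Txnip, the alpha-arrestin that limits glucose uptake, was the most abundant of the 8 in resting cells. It stood at 2142, 1515 and 1333 CPM at 0 h, 111, 218 and 258 CPM at 4 h and 46.3, 41.1 and 45.4 CPM at 20 h, with no overlap between times. It fell 8.50-fold at 4 h (log2 fold change -3.09 ± 0.24, adjusted p = 8.8e-19) and 37.5-fold at 20 h (-5.23 ± 0.27, adjusted p = 7.4e-29). Arrdc3, the other alpha-arrestin, stood at 31.8, 38.5 and 25.9 CPM at 0 h, 15.2, 23.3 and 20.7 CPM at 4 h and 18.4, 14.4 and 14.3 CPM at 20 h. All stimulated libraries were below all resting ones, but the change was small: -0.70 ± 0.21 at 4 h (adjusted p = 0.0054), short of the fold threshold, and a 2.04-fold fall at 20 h (-1.03 ± 0.21, adjusted p = 2.5e-05), which was -0.87 and no longer called without replicate 2.

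Tsc22d3, the glucocorticoid-induced gene, fell furthest. It stood at 961, 459 and 675 CPM at 0 h, 46.1, 88.8 and 103 CPM at 4 h and 7.67, 6.63 and 7.57 CPM at 20 h. It fell 8.81-fold at 4 h (log2 fold change -3.14 ± 0.25, adjusted p = 2.1e-18) and 95.7-fold at 20 h (-6.58 ± 0.30, adjusted p = 5.2e-32). The 3 times did not overlap, and the spread was smallest at 20 h (7.29 ± 0.571 CPM, SD, n = 3).

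**Figure D2:**
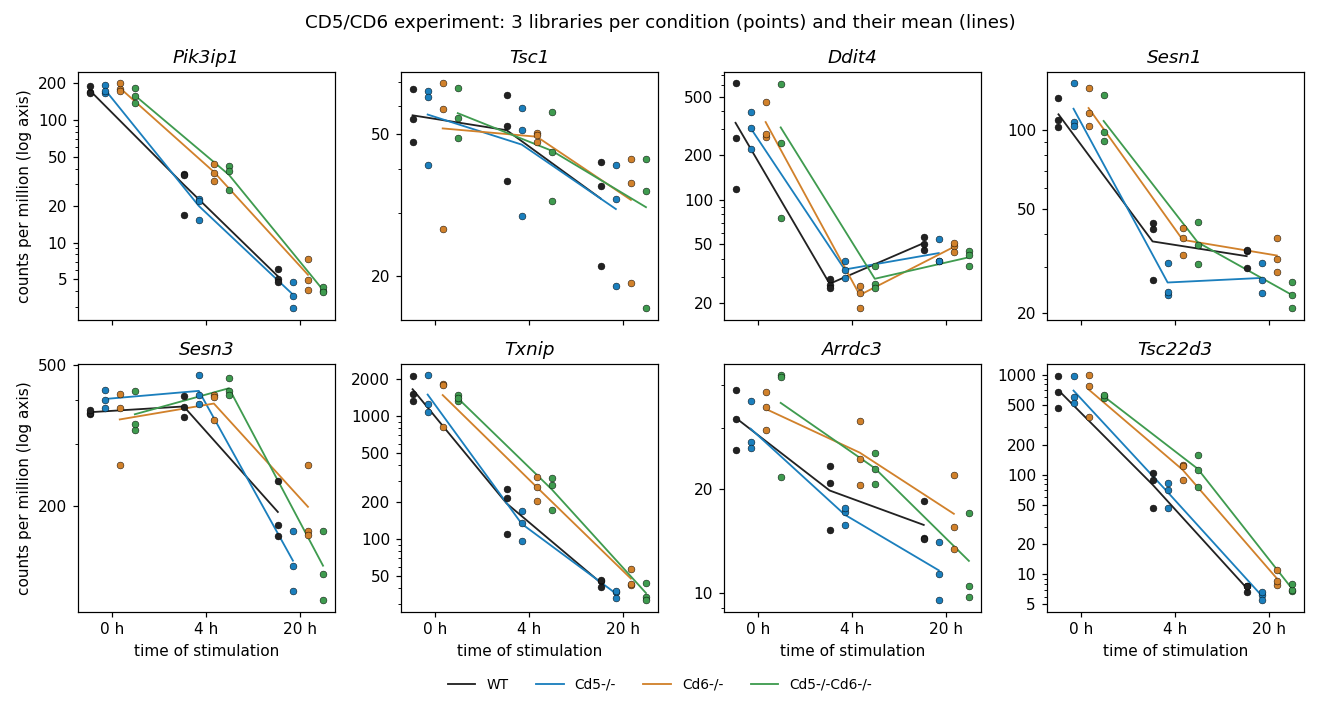
Level of each gene in CPM (log axes that differ between panels) at 0, 4 and 20 h in the 4 genotypes of the CD5/CD6 experiment; points are libraries, 3 per condition, and lines join their means. Pik3ip1, Txnip and Tsc22d3 drop at both steps in all 4 genotypes, and Ddit4 is lowest at 4 h.

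The same genes were called in the other genotypes, which were fitted with the same test. At 4 h, Pik3ip1, Tsc22d3, Sesn1, Ddit4 and Txnip were called lower in Cd5-/- cells, where 11.3% of all genes were, in Cd6-/- cells, where 10.2% were, and in Cd5-/-Cd6-/- cells, where 9.66% were. At 20 h, those 5 and Arrdc3 were called lower in all 3 genotypes, and Sesn3 in Cd5-/- cells (-1.51 ± 0.17, adjusted p = 5.2e-12) and in Cd5-/-Cd6-/- cells (-1.42 ± 0.17, adjusted p = 4.8e-11). This made 7 genes in Cd5-/- cells (17.5% of all genes), 6 in Cd6-/- cells (16.8%) and 7 in Cd5-/-Cd6-/- cells (18%). The Arrdc3 call in Cd6-/- cells (-1.01 ± 0.21) was lost without replicate 2 (-0.97) or replicate 3 (-0.86), with a stricter filter on low counts (-0.98) and with the compared groups alone (-0.98). Tsc1 was not called in Cd5-/- cells (-0.88 ± 0.26) or Cd5-/-Cd6-/- cells (-0.87 ± 0.26) at 20 h, and passed the fold threshold there without replicate 1 (-1.05 and -1.19). Over the 12 libraries of each time, Pik3ip1 ranged from 139 to 201 CPM (median 172) at 0 h, 15.3 to 44.1 CPM (median 33.9) at 4 h and 2.90 to 7.34 CPM (median 4.55) at 20 h. Txnip ranged from 826 to 2165 CPM (median 1447), 96.2 to 324 CPM (median 211) and 31.8 to 57.5 CPM (median 42.0). Tsc22d3 ranged from 375 to 990.2 CPM (median 620.4), 46.1 to 156 CPM (median 88.7) and 5.48 to 11.0 CPM (median 7.24). For these 3 genes the times did not overlap in any genotype. With library totals alone, lower calls made up 68.1%, 67.1% and 69.0% of the called genes at 4 h in Cd5-/-, Cd6-/- and Cd5-/-Cd6-/- cells, in place of 57.9%, 57.0% and 56.0%.

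Some of the spread followed the library number across genotypes, a pattern picked out after the values were seen. Tsc1 was lowest in library 3 in 12 of 12 conditions of the CD5/CD6 experiment, for example 42.7, 34.6 and 16.2 CPM in Cd5-/-Cd6-/- cells at 20 h. Sesn3 was lowest in library 3 in 9 of 12 conditions, including all 8 at 4 h and 20 h. At 4 h, Pik3ip1, Tsc22d3 and Txnip were lowest in library 1 and Ddit4 in library 3 in 4 of 4 genotypes. Ddit4 had the widest spread in resting cells: it stood at 75.5, 241 and 612 CPM in Cd5-/-Cd6-/- cells, and the ratio of the highest to the lowest library had a median of 2.19 over the resting conditions of both experiments, against 1.28 at 4 h and 1.25 at 20 h. Its fall at 4 h in Cd5-/-Cd6-/- cells was -3.41 ± 0.33 and ran from -4.03 without replicate 1 to -2.35 without replicate 3, and at 20 h -2.92 ± 0.32 became -1.98 without replicate 3.

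The question of the CD5/CD6 experiment for these genes was whether the loss of the coreceptors CD5 and CD6 altered their level at a given time. None of the 8 genes was called in any of the 9 comparisons with WT cells, in edgeR, in DESeq2 or with the replicate block. The Cd5-/- comparisons called 0.0619% of all genes at 0 h, 0.0743% at 4 h and 0.0186% at 20 h. The Cd6-/- comparisons called 0% at 0 h, where 707 genes had an unadjusted p below 0.05 and DESeq2 also called 0, 0.0031% at 4 h and 0.0186% at 20 h. The 0 h shares turned on the libraries labelled 2 with each other's pattern: without them, 196 genes were called lower and 13 higher of 32036 in Cd5-/- cells, in place of 18 and 2, and 3 lower and 17 higher in Cd6-/- cells, in place of 0. In Cd5-/- cells at 0 h the replicate block called 55 lower and 6 higher and DESeq2 called 0. The Cd5-/-Cd6-/- comparisons called 0.0248% at 0 h and 0.0434% at each of the later times. At an unadjusted p below 0.05 the 8 genes gave 0, 3 and 3 in Cd5-/- cells, 0, 1 and 0 in Cd6-/- cells and 0, 1 and 2 in Cd5-/-Cd6-/- cells at 0, 4 and 20 h. Over all 32290 genes, the same cut gave 955, 1096 and 723 in Cd5-/- cells and 707, 885 and 541 in Cd6-/- cells. In Cd5-/-Cd6-/- cells it gave 594, 891 and 742.

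The intervals bound what these libraries, as labelled, could miss, each for a single gene and comparison and without adjustment for their number. At 0 h, those of Cd5-/- and Cd6-/- cells include the library 2 that carries the other label's pattern. At 0 h, the 95% intervals of all 8 genes lay between -0.72 and 0.52 in Cd5-/- cells, -0.63 and 0.62 in Cd6-/- cells and -0.70 and 0.55 in Cd5-/-Cd6-/- cells on the log2 scale. At 4 h they lay between -0.996 and 0.93, -0.86 and 0.95, and -0.71 and 0.99, and at 20 h between -0.93 and 0.42, -0.69 and 0.81, and -0.93 and 0.47. For libraries as labelled, a 2-fold difference thus lay outside every interval. The intervals of some smaller differences left out 0, those of the genes with an unadjusted p below 0.05, but none passed the adjustment over all genes. In Cd5-/- cells at 4 h, Pik3ip1 stood at 15.3, 22.6 and 21.8 CPM against 16.8, 36.5 and 35.9 CPM in WT cells, a log2 difference of -0.58 ± 0.19 (adjusted p = 0.51; 0.15 with the replicate block), with Txnip at -0.55 ± 0.22 and Sesn1 at -0.52 ± 0.18. The groups overlapped in Pik3ip1. Tsc22d3 leaned the other way at 4 h in Cd6-/- cells (0.49 ± 0.23) and in Cd5-/-Cd6-/- cells (0.53 ± 0.23, 74.9, 112 and 156 CPM), both with an adjusted p of 1. At 20 h, all 8 log2 differences were below 0 in Cd5-/- cells, with a median of -0.28, and in Cd5-/-Cd6-/- cells, with a median of -0.33, beside 0 over all genes; both use the same WT libraries. The lowest in Cd5-/-Cd6-/- cells were Sesn3 at -0.50 ± 0.17 and Sesn1 at -0.49 ± 0.18, and in Cd5-/- cells Pik3ip1 at -0.51 ± 0.21 and Sesn3 at -0.46 ± 0.17. Gamma delta T cell markers summed to 12.3 to 19.1 CPM in Cd5-/-Cd6-/- cells, 11.6 to 13.0 CPM in Cd5-/- cells and 4.24 to 6.20 CPM in WT cells at 20 h. At 4 h they summed to 60.5 to 84.7, 55.4 to 60.9 and 20.4 to 22.3 CPM in the same order, and their part in these differences was not tested.

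**Figure D3:**
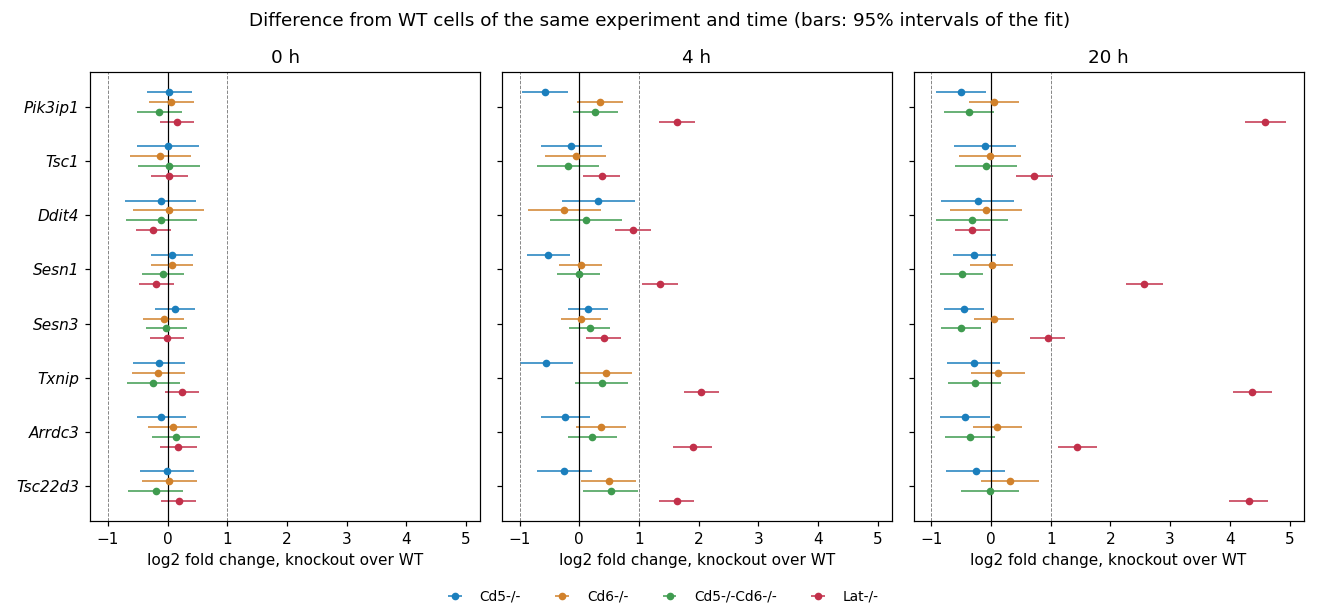
Log2 fold change of each knockout over WT cells of the same experiment and time, one panel per time on a shared axis; points are estimates and bars are 95% intervals, and dashed lines mark 2-fold. The Cd5-/-, Cd6-/- and Cd5-/-Cd6-/- intervals stay between -0.996 and 0.99, and the Lat-/- values reach 4.60 at 20 h.

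The LAT experiment asked whether the response needed LAT. In its WT cells, 5 of the 8 genes were called lower at 4 h (9.29% of the 27780 genes tested) and at 20 h (12.7%), the same 5 as at 4 h in the CD5/CD6 experiment, and 3 were called lower from 4 h to 20 h (9.32%). Among the 10151 genes that averaged 50 counts or more, 17.8%, 20.7% and 15.0% were. In Lat-/- cells, 1 gene was called lower and 1 higher at 4 h (3.62% and 3.08% of all genes) and at 20 h (2.07% and 2.14%). From 4 h to 20 h, 0 were called by edgeR or DESeq2 (4.1% of all genes). There, 5 had an unadjusted p below 0.05, as did 5297 of the 27780 genes tested. The median log2 fold change of the 8 was -1.38 and -1.85 in WT cells and -0.14 and 0.34 in Lat-/- cells. In this experiment edgeR took each gene's spread from the trend over all genes. The SE of a comparison of 2 conditions is thus near 0.15 for all 8, and the adjusted p does not reflect a gene's own spread. DESeq2, which fits its own spread, made the same calls for the 8 genes with higher adjusted p. For Lat-/- against WT cells, its lowest among the 8 was 1.5e-11 at 4 h and 6.3e-81 at 20 h, where edgeR's was 1.3e-39 and 7.3e-150. With library totals alone, lower calls made up 67.1% of the called genes in WT cells at 4 h in place of 53.6%, and 43.3% from 4 h to 20 h in place of 54.1%.

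Against WT cells of the same time, 0 of the 8 genes were called in resting Lat-/- cells by edgeR or DESeq2, beside 0.961% of all genes. None of the 8 had an unadjusted p below 0.05, as 1693 of the 27780 genes did. At 4 h, 5 were called higher in Lat-/- cells (5.51% of all genes and 11.6% of those with at least 50 counts), and at 20 h again 5 (12.1% and 21.8%). The test of the difference between the 2 responses, which shares these libraries, called 6 genes higher at 4 h (4.37% and 10.7%) and 5 at 20 h (10.1% and 20.5%). With library totals alone, the median of all genes for the difference at 4 h moved from 0 to 0.10 and the lower share of its calls from 49.9% to 35.8%. In resting cells the 3 Lat-/- libraries lay above the 3 WT libraries in Pik3ip1 alone, and the groups overlapped in the other 7. At 4 h they lay above in all but Sesn3, and at 20 h in all but Ddit4. The share of all genes whose libraries part in this way was not counted, so these separations describe single genes only.

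Pik3ip1 stood at 207, 229 and 207 CPM in WT cells at 0 h, 44.5, 43.1 and 105 CPM at 4 h and 13.0, 13.1 and 15.8 CPM at 20 h. In Lat-/- cells it stood at 233, 249 and 237 CPM, then 188, 221 and 193 CPM, then 329, 361 and 324 CPM, so the highest values came at 20 h. WT cells fell by 15.3-fold at 20 h (log2 fold change -3.94 ± 0.17, adjusted p = 7.5e-117), while Lat-/- cells changed by 0.50 ± 0.15 (adjusted p = 0.011). At 20 h, Lat-/- cells were 24.2-fold higher than WT cells (log2 difference 4.60 ± 0.17, adjusted p = 7.3e-150).

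Txnip and Tsc22d3 also fell in WT cells and were not called in Lat-/- cells. Txnip stood at 1284, 1141 and 1716 CPM in WT cells at 0 h, 174, 264 and 578 CPM at 4 h and 52.5, 72.5 and 83.5 CPM at 20 h, and in Lat-/- cells at 1447, 1403 and 2055 CPM, 1522, 1283 and 1372 CPM, and 1179, 1563 and 1578 CPM. Its WT fall reached 19.9-fold at 20 h (-4.31 ± 0.17), its change in Lat-/- cells was -0.18 ± 0.14 (adjusted p = 0.58), and Lat-/- cells stood 20.7-fold above WT cells (4.37 ± 0.17, adjusted p = 3.3e-148). Tsc22d3 stood at 20.5, 17.7 and 21.3 CPM in WT cells and at 386, 446 and 349.7 CPM in Lat-/- cells at 20 h, 19.9-fold apart (4.31 ± 0.17, adjusted p = 9.0e-139). At 0 h the groups overlapped, at 380.5, 573 and 609.6 CPM in WT and 420.1, 674 and 683 CPM in Lat-/- cells, and at 4 h they did not, at 101, 108 and 270.1 CPM and 439.9, 501 and 545 CPM. Its fall in WT cells was 26.3-fold (-4.72 ± 0.17), and in Lat-/- cells it changed by -0.59 ± 0.15 (adjusted p = 0.0013), short of the fold threshold.

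**Figure D4:**
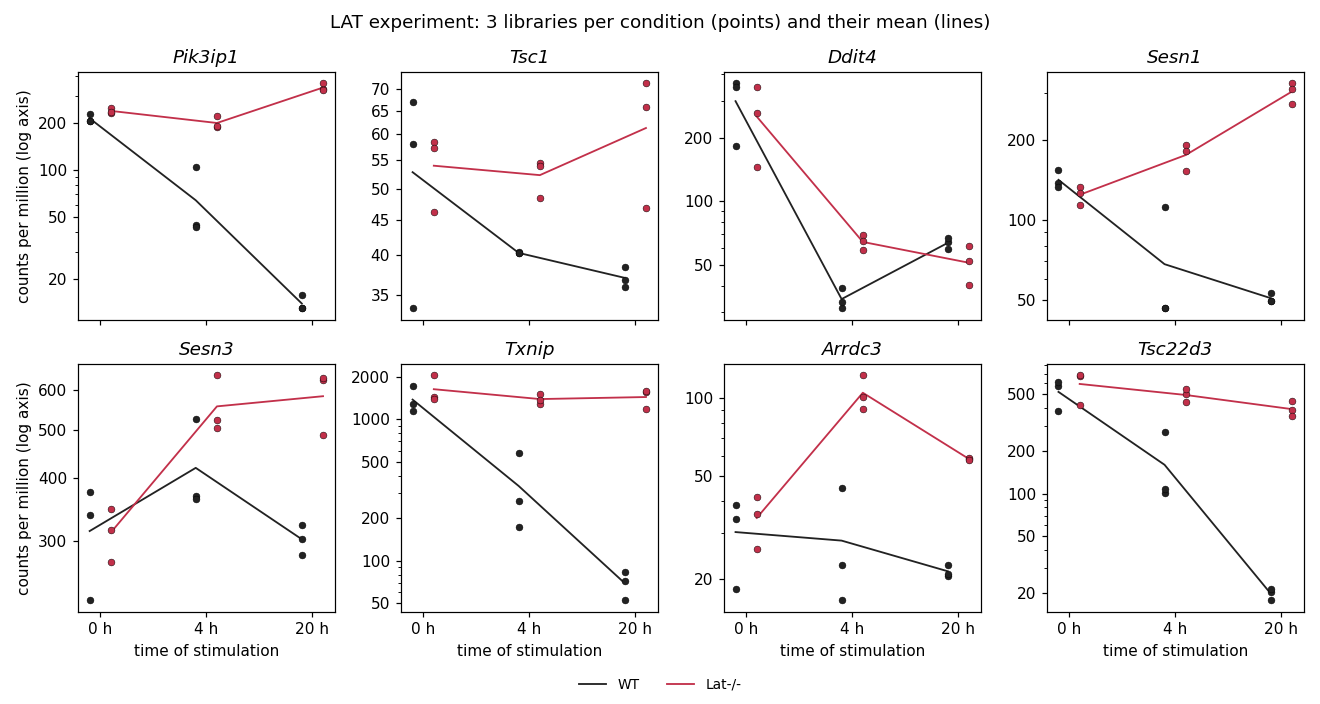
Level of each gene in CPM (log axes that differ between panels) at 0, 4 and 20 h in WT and Lat-/- cells of the LAT experiment; points are libraries, 3 per condition, and lines join their means. At 20 h all Lat-/- libraries lie above all WT libraries except in Ddit4, and 1 WT library at 4 h lies well above the other two in Pik3ip1, Sesn1, Txnip, Arrdc3 and Tsc22d3.

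Sesn1 went in opposite directions. In WT cells it stood at 138, 133 and 154 CPM at 0 h, 46.7, 46.6 and 112 CPM at 4 h and 49.8, 49.8 and 53.4 CPM at 20 h; in Lat-/- cells at 114, 133 and 126 CPM, 153, 191 and 182 CPM, and 273, 326 and 309 CPM. It fell 2.77-fold in WT cells at 20 h (-1.47 ± 0.15, adjusted p = 9.8e-21) and rose 2.44-fold in Lat-/- cells (1.28 ± 0.15, adjusted p = 2.9e-15), which left it 5.94-fold higher without LAT (2.57 ± 0.16, adjusted p = 1.5e-57). Its WT call at 4 h (-1.05 ± 0.15) was lost without replicate 1 (-0.90) or replicate 2 (-0.93). Sesn3 stood at 337, 228 and 376 CPM in WT cells at 0 h, 369, 526 and 363 CPM at 4 h and 303, 322 and 281 CPM at 20 h, so that 20 h lay below 4 h and both overlapped 0 h. In Lat-/- cells it stood at 273, 347 and 315 CPM, 642, 524 and 503 CPM, and 626, 633 and 489 CPM, above 0 h in all stimulated libraries. The change in Lat-/- cells was 0.90 ± 0.15 (adjusted p = 6.0e-08) and the difference from WT cells at 20 h 0.95 ± 0.15 (adjusted p = 1.1e-09). Both values were just short of 2-fold and passed it without replicate 3, at 1.05 and 1.02.

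Arrdc3 was the 1 gene that peaked in Lat-/- cells at 4 h. It stood there at 41.4, 26.1 and 35.8 CPM at 0 h, 102, 90.9 and 123 CPM at 4 h and 58.5, 58.9 and 57.6 CPM at 20 h, against 38.6, 18.2 and 34.2 CPM, 16.5, 22.7 and 45.2 CPM, and 22.7, 20.6 and 20.9 CPM in WT cells. It rose 3.06-fold at 4 h in Lat-/- cells (1.61 ± 0.16, adjusted p = 6.9e-21), where WT cells changed by -0.11 ± 0.16 (adjusted p = 0.73), and it was 3.73-fold higher than in WT cells at 4 h and 2.72-fold at 20 h. Tsc1 was called in neither genotype. It stood at 71.3, 65.7 and 46.9 CPM in Lat-/- cells and 35.9, 36.8 and 38.4 CPM in WT cells at 20 h, a difference of 0.73 ± 0.16 (adjusted p = 2.4e-05) below the fold threshold.

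Ddit4 was the exception. It fell in both genotypes: from 183, 363 and 348 CPM to 31.2, 33.4 and 39.0 CPM at 4 h and 64.2, 67.2 and 59.5 CPM at 20 h in WT cells, and from 145, 349 and 262 CPM to 69.0, 64.9 and 59.0 CPM and then 40.4, 52.1 and 61.4 CPM in Lat-/- cells. At 4 h the fall was 8.63-fold in WT cells (-3.11 ± 0.16) and 3.92-fold in Lat-/- cells (-1.97 ± 0.16), and the responses differed by 1.14 ± 0.21 (adjusted p = 2.3e-06). At 20 h the falls were 4.68-fold and 4.91-fold, and the difference of the responses was -0.07, with a 95% interval of -0.48 to 0.35. That interval rests on the trend over all genes and may be too narrow for Ddit4. Its highest resting library stood 1.98-fold above the lowest in WT cells and 2.41-fold in Lat-/- cells. The WT level went up from 4 h to 20 h by 0.88 ± 0.15 (adjusted p = 7.1e-08) on the log2 scale and the Lat-/- level went down by 0.33, neither of them called. Without library 3 of WT cells at 4 h, the first value was 1.003 and called, and so was the excess in Lat-/- cells at 4 h (0.90 ± 0.15), which became 1.02.

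**Figure D5:**
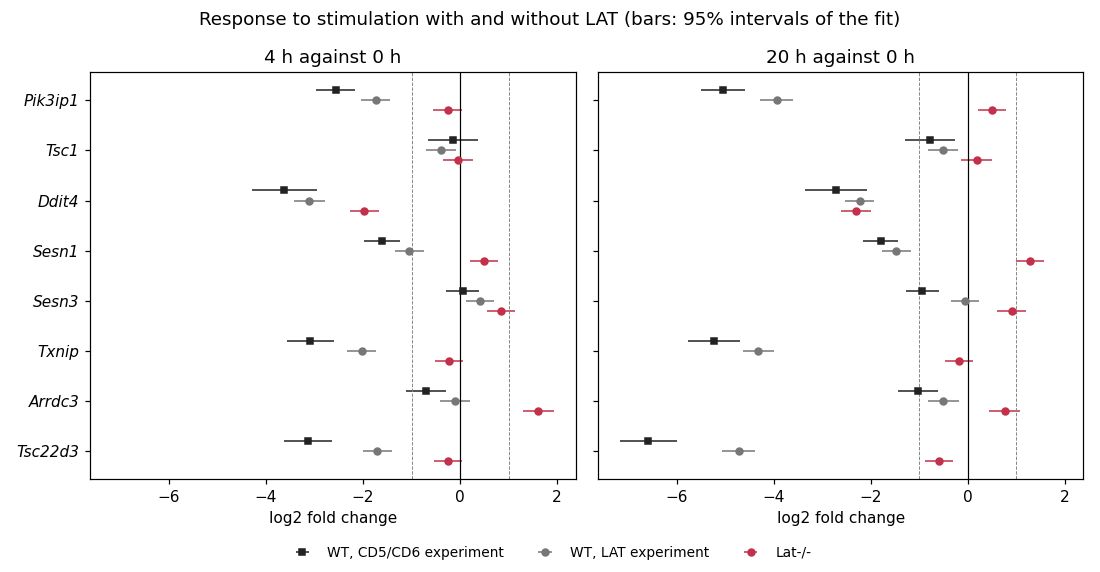
Log2 fold change from 0 h to 4 h and to 20 h in WT cells of both experiments and in Lat-/- cells, on a shared axis; points are estimates, bars are 95% intervals and dashed lines mark 2-fold. WT cells of the 2 experiments lie on the same side of 0 for the 5 genes called in both, and Lat-/- cells lie near or above 0 at 20 h for all but Ddit4 (-2.30) and Tsc22d3 (-0.59).

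A single library shaped the 4 h values of WT cells in the LAT experiment. Library 3 stood highest for Pik3ip1, Sesn1, Tsc22d3, Txnip and Arrdc3 (105, 112, 270.1, 578 and 45.2 CPM), well above both other libraries in each, and its Lat level of 262 CPM was in the WT range. Left out, a choice made after the data were seen, it moved the WT fall at 4 h from -1.74 to -2.32 for Pik3ip1, from -2.03 to -2.69 for Txnip and from -1.70 to -2.35 for Tsc22d3. The step from 4 h to 20 h shrank from -2.20 to -1.62, from -2.28 to -1.63 and from -3.01 to -2.37 in the same order. The excess of Lat-/- cells over WT cells at 4 h went from 1.64 to 2.21, from 2.04 to 2.69 and from 1.63 to 2.27. Sesn1 and Arrdc3, at -0.42 and -0.40 from 4 h to 20 h, turned to 0.15 and 0.15. No call among the 8 genes was lost.

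The sorted groups of the LAT experiment also differed in other markers. Regulatory T cell markers (Foxp3 and Ikzf2) summed to 60.6 to 91.1 CPM in WT cells and 19.5 to 34.8 CPM in Lat-/- cells at 0 h, and to 34.5 to 36.9 CPM and 4.53 to 10.6 CPM at 20 h. Gamma delta T cell markers summed to 28.7 to 40.8 CPM in WT cells and 13.5 to 15.0 CPM in Lat-/- cells at 0 h. At 4 h they summed to 15.3 to 21.9 CPM and 6.00 to 10.0 CPM. At 20 h they lay the other way, at 5.14 to 6.60 CPM in WT cells and 7.69 to 10.4 CPM in Lat-/- cells. The T cell markers summed to 3149 to 3583 CPM in WT cells and 5328 to 6093 CPM in Lat-/- cells at 20 h. Their part in the differences of the 8 genes was not tested. B cell markers stayed at or below 4.90 CPM and erythroid markers at or below 3.02 CPM in every library of this experiment.

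The genes around the 8 were described by fixed lists, without a test of the lists and without a filter on counts. The shares that follow cover only genes averaging 50 counts or more, so the 2 sets are not fully alike. Over all genes tested in the bead-enriched WT cells, 11.1% were called lower at 4 h and 17.3% at 20 h. Of the genes averaging 50 counts or more, 20.7% were called lower and 18.2% higher in the bead-enriched WT cells at 4 h, and 24.4% and 25.7% at 20 h. In the sorted WT cells at 20 h the shares were 20.7% and 19.7%, in Lat-/- cells 2.93% and 4.23%, and for Lat-/- over WT cells at 20 h 22.3% and 21.8%. In WT cells from the CD5/CD6 experiment, 10 of 20 PI3K subunits and lipid phosphatases were called lower at 4 h and 8 at 20 h, with 0 and 1 called higher and a list median of -0.92 at both times. They included the regulatory subunits Pik3r1 (-2.32 ± 0.22 at 20 h) and Pik3r5 (-2.63 ± 0.26). Pik3ap1, an adaptor abundant in B cells, was at -2.99 ± 0.36 in this experiment and at 2.57 ± 0.55 in the sorted WT cells. Its mean at 0 h was 18.1 CPM in the bead-enriched cells, where the B cell markers also fell. In the sorted WT cells its mean was 0.44 CPM at 0 h and 2.63 CPM at 20 h. The B cell markers there summed to 3.10 to 4.90 CPM and 3.00 to 3.91 CPM. The part of B cells in either change was not tested. Without LAT at 20 h, 6 of the 20 were higher and 2 lower than in WT cells, Pik3r1 by 1.82 ± 0.15 and Pik3r5 by 1.90 ± 0.15.

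Of 23 genes of AKT, TSC and the mTOR complexes, 1 was called lower and 4 higher at 20 h, with a median of 0.34. Eif4ebp1, a translation repressor that mTOR complex 1 inactivates, rose by 2.84 ± 0.24 and Tbc1d7, the third subunit of the Tsc1 complex, by 2.28 ± 0.23, while Rictor, the defining subunit of mTOR complex 2, fell by 2.10. Lat-/- cells at 20 h had Rictor at 2.59 ± 0.16 against WT cells, Eif4ebp1 at -1.84 ± 0.21 and Tbc1d7 at -2.44 ± 0.25. Of 27 genes of amino acid sensing by GATOR, Rag GTPases and Ragulator, 3 were lower and 7 higher at 20 h in WT cells (median 0.51), the latter share close to the 25.7% given above, among them Sec13 at 1.61 ± 0.17 and Fnip2 at 2.69 ± 0.25. Of 13 AMPK, LKB1 and ULK kinase genes, 1 was lower, the autophagy kinase Ulk2 (-2.13 ± 0.18), and 1 higher (median -0.30).

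FOXO factors and their targets held the largest share of lower calls among the 9 lists at 20 h against 0 h in WT cells of both experiments, but not at 4 h in the LAT experiment (4 of 18, against 8 of 20 PI3K genes) nor from 4 h to 20 h in the CD5/CD6 experiment (7 of 18, against 10 of 14 glucocorticoid genes). Of 18, 13 were called lower and 2 higher in WT cells after 20 h in the CD5/CD6 experiment, with a median of -2.20, and 11 and 2 in the WT cells sorted for the LAT experiment, with a median of -1.68. The naive cell genes Il7r, the IL-7 receptor, S1pr1, needed to leave lymph nodes, and Klf2, the factor behind S1pr1, fell by 5.85, 5.41 and 5.18 on the log2 scale. Without LAT at 20 h, 0 of the 18 were called lower and 7 higher than at 0 h, and 13 were higher than in WT cells and 1 lower. Il7r there reached 2057 ± 333 CPM (SD, n = 3) from 593 ± 63.3 CPM, against 23.3 ± 11.5 CPM in WT cells.

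Of the 22 genes of alpha-arrestins, thioredoxin, MondoA and glucose uptake, 2 were lower and 7 higher at 20 h (median -0.14). Hk2, the hexokinase that traps glucose in activated cells, rose by 6.15 ± 0.31, Txn1, the thioredoxin that Txnip binds, by 2.98 ± 0.20, and the transporter Slc2a6 by 2.64 ± 0.46. Without LAT, Hk2 and Txn1 were lower than in WT cells at 20 h, at log2 differences of -5.07 ± 0.21 and -1.94 ± 0.15. Of 14 genes of the glucocorticoid receptor and its targets, 7 were lower and 1 higher (median -0.95), with Sgk1 at -5.50 ± 0.22, the phosphatase Dusp1 at -4.75 ± 0.43 and Zfp36 at -2.92 ± 0.17. Dusp1 also fell in Lat-/- cells, by 3.10, and its difference from WT cells at 20 h was 0.52 ± 0.16 (adjusted p = 0.0042), short of the fold threshold.

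Of 11 p53 targets, 2 were lower and 3 higher at 20 h (median 0.82), shares near those of all genes averaging 50 counts or more (24.4% and 25.7%): the cell cycle inhibitor Cdkn1a rose by 5.26 ± 0.26, Phlda3 by 4.88 ± 0.29, and Trp53inp1 fell by 2.08. Of 13 ATF4 stress response genes, 3 were lower and 7 higher (median 1.16), with asparagine synthetase Asns at 4.45 ± 0.41, the serine synthesis gene Psat1 at 3.91 ± 0.20 and Ppp1r15a at -4.29 ± 0.43. Asns and Psat1 in Lat-/- cells at 20 h stood at 0.21 ± 0.60 and 0.10 ± 0.15 against 0 h, neither called. In the 9 comparisons of the CD5/CD6 experiment with WT cells, edgeR called 1 list gene in resting Cd5-/- cells, lower, of the AKT, TSC and mTOR list, and 1 in Cd5-/-Cd6-/- cells at 4 h, higher, of the amino acid sensing list.

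The 8 genes were also set beside one another over the 18 conditions, as Pearson's r of mean log2 CPM centred within each experiment. This is a description of means that share libraries, depth and the time course. Pik3ip1, Txnip and Tsc22d3 ran closest, at 0.994 for Pik3ip1 and Txnip, 0.990 for Pik3ip1 and Tsc22d3 and 0.987 for Txnip and Tsc22d3. Ddit4 ran least with the others, at 0.0545 with Sesn3 and 0.360 with Arrdc3, and Sesn1 and Sesn3 reached 0.533 with each other. Among 10086 genes, the closest to Pik3ip1 were Fgd3 (0.998) and Smim14 (0.997), to Txnip Zrsr1 (0.997) and Vrk3 (0.997), and to Tsc22d3 Kdm4b (0.995) and Frat2 (0.995). Tsc1 was closest to Tnks (0.988) and Zfp398 (0.985), Ddit4 to Dtx1 (0.987) and Dok2 (0.983), and Sesn1 to Ctdsp2 (0.991) and Zfp386 (0.985). Sesn3 was closest to Csnk1g1 (0.977) and Sppl3 (0.972) and Arrdc3 to Tmem184b (0.969) and Usp22 (0.954). Under rank correlation or in the CD5/CD6 experiment alone, 28 of the 32 places went to other genes, so the named neighbours are a few of many genes with nearly the same profile.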

How the data were processed

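RNA from naive mouse CD4+ T cells was sequenced as stranded poly-A libraries with single reads of 50 bases. The authors aligned reads with STAR to GRCm38 and counted them per gene with featureCounts, and deposited 1 table of raw counts per experiment; the submitters' processing notes also name bcl2fastq 2.17.1.14 and DESeq2. The annotation release and the strand and multimapper settings are not given in the sources used here. Of 55385 rows, 54487 gene IDs were found in GENCODE M21 with the same coordinates.

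Each table was fitted on its own. Genes without a single read were dropped, leaving 32290 and 27780, libraries were scaled with TMM, and edgeR 4.0.16 (R 4.3.3) quasi-likelihood tests with Benjamini-Hochberg adjustment were run with all 36 or 18 libraries in 1 fit. A gene was called at more than 2-fold and an adjusted p below 0.05. CPM used the TMM library sizes. Likeness was Pearson's r among 10086 genes. The tests were run on simulated counts with 200 genes changed 4-fold. With each gene's own spread, 198 were recovered for Cd5-/-Cd6-/- against WT cells at 20 h and 200 for Lat-/- against WT cells. There, 49 and 26 unchanged genes were also called. With the spread of the trend, 199 and 200 were recovered, with 6 and 7 unchanged genes called. The 49 exceeds the 24 or fewer genes called in each real knockout comparison of the CD5/CD6 experiment. The simulated libraries lacked the pattern by library number, so the share of false calls in the real data is not known.

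The 8 genes and all lists were chosen with earlier results of these data known. Of each list, at most 3 genes are named, those with the largest change among called genes averaging 50 counts or more in the WT response at 20 h of the CD5/CD6 experiment; likeness names the 2 genes with the highest r. A gene that this rule names is not reported here. Groups and replicate numbers came from the sample titles. Libraries with the same number deviated together in some comparisons: the mean correlation of their deviations from the group means was 0.229 (other numbers -0.113) in the CD5/CD6 experiment and 0.0705 (other numbers -0.0344) in the LAT experiment. Deviations within a group sum to 0, so the values for other numbers follow from the first ones and are no separate comparison. All 3 pairs passed 0.1 in WT, Cd5-/- and Cd5-/-Cd6-/- cells from 0 h to 4 h, in Cd5-/- cells from 0 h to 20 h, in most knockout comparisons of the CD5/CD6 experiment and in resting Lat-/- against WT cells. Alternatives were other scalings, a stricter filter, a replicate block, each replicate left out, the compared groups alone, DESeq2 1.42.0, an adjusted p alone and rank correlation. Leaving out library 3 of WT cells at 4 h in the LAT experiment was added after seeing the data. Figures were drawn with matplotlib 3.10.9.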

Additional observations from a re-analysis of the deposited data

Results flagged for a closer look

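The response to stimulation differed between Lat-/- and WT cells, by the test of the difference itself, in 6 of the 8 genes at 4 h and 5 at 20 h. Values are the log2 response of Lat-/- cells minus that of WT cells, with adjusted p from edgeR's quasi-likelihood test. Here that test took each gene's spread from the trend over all genes, not from the gene's own libraries. In DESeq2, the lowest adjusted p among the 8 genes was 1.7e-05 at 4 h and 2.3e-38 at 20 h.

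At 4 h, the differences were 1.80 for Txnip (adjusted p = 5.3e-16), 1.72 for Arrdc3 (4.5e-12), 1.54 for Sesn1 (2.7e-11), 1.48 for Pik3ip1 (1.5e-10), 1.45 for Tsc22d3 (2.7e-10) and 1.14 for Ddit4 (2.3e-06). Without library 3 of WT cells at 4 h they were 2.44, 2.25, 2.11, 2.05, 2.08 and 1.25 in the same order.

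At 20 h, the differences were 4.44 for Pik3ip1 (adjusted p = 8.3e-86), 4.13 for Txnip (2.6e-80), 4.13 for Tsc22d3 (6.1e-77), 2.76 for Sesn1 (1.6e-35) and 1.26 for Arrdc3 (3.2e-07). In these 5 genes, all 3 Lat-/- libraries lay above all 3 WT libraries at 4 h and at 20 h. The share of all genes with such a separation was not counted. The regulatory T cell markers, lower in Lat-/- cells at every time, are given with the results, and their part was not tested.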

How the results depend on the processing

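Of 1670 refitted log2 fold changes of the 8 genes, 1603 kept their direction and side of the threshold, 24 gained a call, 7 lost one and 36 changed sign; none of the 36 had been called. With 3 libraries per condition, values near 2-fold are the ones that moved across the threshold. The cause was not tested in any of these.

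The replicate block added 1 call, Sesn3 in WT cells from 4 h to 20 h (-1.003), turned Tsc1 in Cd6-/- cells at 4 h from -0.08 to 0.036 and changed no other call; the numbers are not known to mark shared mice. With library totals alone, Sesn3 at 4 h was -0.19 in WT, -0.14 in Cd5-/- and -0.057 in Cd6-/- cells of the CD5/CD6 experiment, and in the LAT experiment Tsc1 was 0.086 from 4 h to 20 h in WT cells and -0.0010 between resting Lat-/- and WT cells. RLE factors gave 0.0034 for Tsc22d3 in Cd5-/-Cd6-/- against WT cells at 20 h and 0.0017 for Sesn3 in LAT WT cells at 20 h, and DESeq2 gave 0.0046 and 0.0017. In the compared groups alone, the Ddit4 difference of responses at 20 h was 0.0098. Without the pair of libraries labelled 2 at 0 h, Tsc1 in Cd6-/- cells at 4 h was 0.18.

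Leaving out 1 replicate gave these ranges where the sign changed, among the refitted values counted above. In the CD5/CD6 experiment at 4 h against 0 h, Sesn3 ran from -0.028 to 0.11 in WT and from -0.043 to 0.18 in Cd5-/- cells, and Tsc1 from -0.36 to 0.17 in Cd6-/- cells. Against WT cells, Arrdc3 ran from -0.14 to 0.30 in resting Cd6-/- cells, Txnip from -0.38 to 0.023 and Arrdc3 from -0.0046 to 0.27 in resting Cd5-/-Cd6-/- cells, and Tsc22d3 from -0.066 to 0.067 in Cd5-/-Cd6-/- cells at 20 h. In LAT WT cells, Sesn3 ran from -0.013 to 0.65 and Arrdc3 from -0.66 to 0.33 at 4 h, Sesn3 from -0.34 to 0.16 at 20 h, and from 4 h to 20 h Sesn1 from -0.62 to 0.15 and Arrdc3 from -0.64 to 0.17. In Lat-/- cells from 4 h to 20 h, Txnip ran from -0.049 to 0.26 and Sesn3 from -0.016 to 0.14. Between resting Lat-/- and WT cells, Tsc1 ran from -0.11 to 0.17 and Sesn3 from -0.28 to 0.13, and the Ddit4 difference of responses at 20 h ran from -0.35 to 0.16.

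The count of the 8 genes called moved by more than 1.5 times in 14 of 600 refits. With an adjusted p alone and no fold threshold, 1 was higher from 4 h to 20 h in WT cells in the CD5/CD6 experiment, 1 higher at 4 h in LAT WT cells, 6 lower and 1 higher from 4 h to 20 h in LAT WT cells, 3 higher at 4 h, 2 lower and 4 higher at 20 h, and 1 lower and 2 higher from 4 h to 20 h in Lat-/- cells. With library totals alone, 1 was higher from 4 h to 20 h in WT cells of each experiment. With 1 replicate left out, the number higher ran from 0 to 1 from 4 h to 20 h in LAT WT cells, 1 also without library 3 of the 4 h cells alone, and from 1 to 2 in Lat-/- cells at 20 h.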
